A study of Mus musculus with 3 samples.

Results

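The clustered protocadherin genes are cell-surface cadherins that lie side by side in 3 arrays, called alpha, beta and gamma. They were chosen from the gene table as protein-coding entries whose symbol begins with Pcdha, Pcdhb or Pcdhg followed by the cluster's numbering. The rule found 57 of the 55487 genes in the table, of which 14 were alpha, 22 beta and 21 gamma genes. All 57 were annotated on the plus strand of mouse chromosome 18 in GRCm38, within 911.7 kb. The alpha genes lay between positions 36930184 and 37187661, the beta genes between 37264938 and 37524479, and the gamma genes between 37661793 and 37841873.

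RNA was measured in embryoid bodies (EBs), the aggregates that mouse embryonic stem (ES) cells form in hanging drops once LIF, the factor that keeps them undifferentiated, is left out. The cells were wild-type E14K ES cells, a single mouse line. The 3 conditions were EBs kept from the start of day 3 in 30 μM C2 ceramide, which has a shortened acyl chain and passes into cells, and collected on day 4, EBs given the solvent DMSO and collected on day 4, and DMSO-treated EBs collected on day 3. The question was which genes change as the primitive streak forms between day 3 and day 4, and which of these ceramide holds back. The study also looked for genes that do not usually take part in this step but that ceramide can induce. There was 1 library per condition, so no test between conditions was possible. Ratios below are given with 95% exact intervals that cover counting error only, and they say nothing of how much separate cultures vary. Each EB library is a mixture of cells, so fewer cells that use a gene and less RNA of it per cell cannot be told apart.

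Clustered protocadherins bind copies of themselves on the neighbouring cell, and neurons use different combinations of them to tell their own branches from those of other cells. Each alpha or gamma gene has its own first exon, which encodes the extracellular and transmembrane part, joined to constant exons that the whole cluster shares and that encode a common intracellular end. Each beta gene is a single exon with no shared end. Most variable genes are chosen at random by single cells through a promoter bound by CTCF, while the C-type genes at the end of the alpha and gamma arrays are used more uniformly. These genes are best known from the nervous system, where the gamma C-type proteins are needed for the survival of some neurons.

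The libraries held 35290094 estimated counts in C2 ceramide day 4 EBs, 35078820 in DMSO day 4 EBs and 33619197 in DMSO day 3 EBs. The pluripotency and epiblast markers Pou5f1, Nanog, Sox2 and Fgf5 summed to 1224, 1011 and 1315 TPM, a read share scaled for transcript length and library size, in C2 ceramide day 4, DMSO day 4 and DMSO day 3 EBs. Most of this sum was Pou5f1, and the markers did not move together. With ceramide on day 4, Sox2 was higher (120.2 against 51.15 TPM with DMSO) and Fgf5 lower (86.6 against 253.1 TPM). Pou5f1 and Nanog lay within 2-fold. The 4 primitive streak markers T, Mixl1, Eomes and Wnt3 summed to 30.8 TPM in C2 ceramide day 4 EBs and 347.3 TPM in DMSO day 4 EBs, against 36.1 TPM in DMSO day 3 EBs, and each of them was lower by more than 2-fold with ceramide. The neural progenitor markers Sox1, Pax6, Nes and Zic1 summed to 22.1 TPM in C2 ceramide day 4 EBs and 15.3 TPM in DMSO day 4 EBs, against 11.5 TPM in DMSO day 3 EBs. Most of this sum was Nes, at 20.7, 14.8 and 10.65 TPM in the same order, which lay within 2-fold with ceramide on day 4. Pax6 had 66 counts in C2 ceramide day 4 EBs and 23 in DMSO day 4 EBs. Zic1 did not pass 8 counts in any library, and Sox1 had 66 counts with ceramide and 0 in both DMSO libraries. The 8 neuronal markers summed to 79.8 TPM in C2 ceramide day 4 EBs and 53.1 TPM in DMSO day 4 EBs, against 55.5 TPM in DMSO day 3 EBs. Most of this sum was Stmn2, and the markers did not move together. With ceramide on day 4, 3 were higher by more than 2-fold, 1 was lower and 4 lay within 2-fold, Stmn2 among them. The higher ones were Tubb3 (854 against 189 counts with DMSO), Snap25 (73 against 18) and Rbfox3 (27 against 8). The lower one was Dcx, and Rbfox3 and Dcx had at most 27 and 20 counts in any library. What these cell types contributed to the protocadherin values was not tested.

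The gamma cluster carried nearly all of the protocadherin RNA, and the alpha and beta clusters were close to the limit of detection. Summed over the cluster, gamma reached 21.5 TPM in C2 ceramide day 4 EBs and 32.8 TPM in DMSO day 4 EBs, against 16.4 TPM in DMSO day 3 EBs. Alpha reached only 0.583 TPM in C2 ceramide day 4 EBs, 0.977 TPM in DMSO day 4 EBs and 0.902 TPM in DMSO day 3 EBs. Beta reached 0.278 TPM in C2 ceramide day 4 EBs, 0.647 TPM in DMSO day 4 EBs and 0.402 TPM in DMSO day 3 EBs.

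All 57 genes together took 2867 counts in the C2 ceramide day 4 library, 4489 in the DMSO day 4 library and 1808 in the DMSO day 3 library, which was 0.00812%, 0.0128% and 0.00538% of all counts. A TPM of at least 1 was reached by 6 members in C2 ceramide day 4 EBs, 7 in DMSO day 4 EBs and 2 in DMSO day 3 EBs, and all of these were gamma genes. At 0 counts were 8 of the 14 alpha and 18 of the 22 beta genes in C2 ceramide day 4 EBs, 5 alpha and 13 beta genes in DMSO day 4 EBs, and 6 alpha and 15 beta genes in DMSO day 3 EBs. In the gamma cluster 1 of the 21 genes was at 0 in either day 4 library, against 5 in DMSO day 3 EBs. A gene at 0 may still have been present below the level of about 3 counts that a count of 0 allows.

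**Figure D1:**
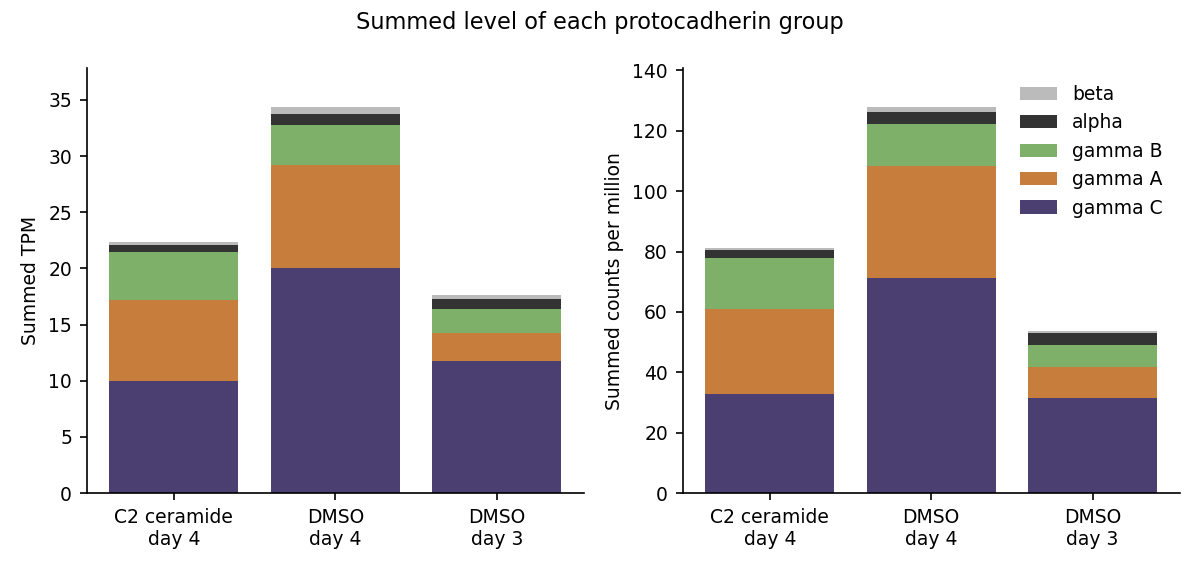
Stacked bars of the summed TPM (left) and summed CPM (right) of the gamma C, gamma A, gamma B, alpha and beta genes in the C2 ceramide day 4, DMSO day 4 and DMSO day 3 libraries, 1 library per bar. The gamma genes filled most of every bar, and on TPM the gamma sum was 21.5 in C2 ceramide day 4 EBs, 32.8 in DMSO day 4 EBs and 16.4 in DMSO day 3 EBs.

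The gamma sum was lower in C2 ceramide day 4 than in DMSO day 4 EBs, with a log2 TPM ratio of -0.61 (interval -0.68 to -0.54). It was higher in DMSO day 4 than in DMSO day 3 EBs, with a log2 ratio of 1.003 (0.920 to 1.085) on TPM and 1.31 (1.23 to 1.40) on CPM, counts scaled by library total alone. C2 ceramide day 4 EBs lay above DMSO day 3 EBs, with a log2 ratio of 0.39 (0.30 to 0.48) on TPM. These comparisons use the same 3 libraries in pairs and are not independent of each other.

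The alpha sum had a log2 TPM ratio of -0.74 (-1.15 to -0.35) in C2 ceramide day 4 over DMSO day 4 EBs, on 89.0 and 136.0 counts. In DMSO day 4 over DMSO day 3 EBs the alpha ratio was 0.11 (-0.24 to 0.47), so that the alpha genes as a group did not differ between the days beyond counting error. The beta sum had a log2 ratio of -1.22 (-1.91 to -0.56) in C2 ceramide day 4 over DMSO day 4 EBs, on 29.0 and 64.0 counts. In DMSO day 4 over DMSO day 3 EBs the beta ratio was 0.69 (0.01 to 1.40) on TPM and 1.24 (0.56 to 1.96) on CPM. The lower bound of the beta difference on TPM was therefore next to 0, and 8 of the 26 beta counts in DMSO day 3 EBs came from Pcdhb2 alone, a gene singled out after its values were seen.

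How far a single gene's value can be trusted depended on the exons it shares. In the GENCODE M21 annotation of GRCm38, all 14 alpha genes ended in the same 3 constant exons of 59, 89 and 2712 bases (positions 37156155-37156213, 37159265-37159353 and 37184946-37187657). The gamma genes ended in 3 constant exons of 59, 89 and 1971 bases (37825021-37825079, 37833265-37833353 and 37839903-37841873). In the longest coding transcript of each gene, a median of 46.5% of the exon bases was the gene's own in the alpha cluster and 55% in the gamma cluster, against 100% in the beta cluster.

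The share that is unlike any other transcript was smaller still, because first exons can resemble each other or overlap other annotated genes on either strand. Among these were antisense transcripts and 3 protein-coding entries that run from the alpha into the gamma cluster, with 0 counts over the 3 libraries. How much each took from a given gene was not measured. Of all 75-base windows in a transcript, the median share found in no other gene's transcript, on either strand, was 42% for alpha genes, 52% for gamma genes and 98.8% for beta genes. The lowest values were 1.32% for Pcdha4 and 1.57% for Pcdhga10, both singled out after their values were seen. Transcripts that hold shared bases took 100% of the alpha counts in every library. Of the gamma counts they took 93.6% in C2 ceramide day 4, 95.6% in DMSO day 4 and 93.8% in DMSO day 3 EBs. The DRAGEN software splits reads from shared exons between genes by estimation, and neither the intervals nor the counts below hold the error of that split. The kit does not mark strand, so reads from a gene and its antisense partner cannot be told apart.

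The C-type genes are the last 3 of the gamma array, and they carried the largest single values. Pcdhgc3 (37806364-37841873) was the highest member by counts in every library. It reached 6.42 TPM in C2 ceramide day 4 EBs and 13.3 TPM in DMSO day 4 EBs, against 3.67 TPM in DMSO day 3 EBs. It took 899.7 counts in C2 ceramide day 4, 1888 in DMSO day 4 and 506 in DMSO day 3 EBs. Pcdhgc3 alone was 32.7% of the gamma counts in C2 ceramide day 4, 44.0% in DMSO day 4 and 30.6% in DMSO day 3 EBs, where Pcdhgc4 was close behind it with 499.9 counts. Among 14738 protein-coding genes in use, its DMSO day 4 level stood at the 55.7th percentile, so that the highest clustered protocadherin was a gene of middling level.

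The log2 TPM ratio of Pcdhgc3 was -1.05 (-1.16 to -0.93) in C2 ceramide day 4 over DMSO day 4 EBs and 1.85 (1.71 to 2.00) in DMSO day 4 over DMSO day 3 EBs. Ceramide-treated EBs were still higher than DMSO day 3 EBs, by 0.81 (0.65 to 0.97). Its full-length coding transcript took 821 counts in C2 ceramide day 4 EBs, 1840 in DMSO day 4 EBs and 485 in DMSO day 3 EBs. A transcript of Pcdhgc3 that retains an intron and holds no constant exon took 68.8 counts in C2 ceramide day 4, 48.1 in DMSO day 4 and 20.7 in DMSO day 3 EBs, with a log2 ratio of 0.50 (-0.04 to 1.07) for ceramide over DMSO on day 4. The lower ceramide value therefore came from the coding transcript and not from this one.

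Only 24.4% of the 75-base windows of the coding Pcdhgc3 transcript were its own. Of its 4687 bases, 2119 were shared with other members, and the antisense gene BC037039 runs over part of the rest. BC037039 had 39.4 counts in C2 ceramide day 4 EBs and 55.6 in DMSO day 4 EBs, against 1.89 in DMSO day 3 EBs, a small fraction of the Pcdhgc3 counts. Its part in the Pcdhgc3 values was not tested.

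Pcdhgc4 (37815079-37841873), the gamma C-type gene known to be required for neuronal survival in mice, gave different answers at the level of the gene and of the transcript. The gene had 3.25 TPM in C2 ceramide day 4 EBs and 6.11 TPM in DMSO day 4 EBs, against 7.75 TPM in DMSO day 3 EBs, and was the highest member on TPM in the last of these. At the level of the gene, its log2 ratio was -0.91 (-1.15 to -0.68) in C2 ceramide day 4 over DMSO day 4 EBs and -0.34 (-0.52 to -0.16) in DMSO day 4 over DMSO day 3 EBs. Pcdhgc4 was thus the only C-type gamma gene whose TPM was lower in DMSO day 4 than in DMSO day 3 EBs. On CPM these ratios were -1.25 (-1.49 to -1.02) and -0.03 (-0.21 to 0.15). On CPM the DMSO libraries of the 2 days therefore did not differ beyond counting error.

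The full-length coding transcript of Pcdhgc4, 5024 bases long with 57.8% own bases, had 4.77 counts in C2 ceramide day 4 EBs and 162.6 in DMSO day 4 EBs, against 19.8 in DMSO day 3 EBs. Its log2 TPM ratio was -5.11 (-6.68 to -3.79) in C2 ceramide day 4 over DMSO day 4 EBs and 3.00 (2.32 to 3.74) in DMSO day 4 over DMSO day 3 EBs. A retained-intron transcript of Pcdhgc4 made only of own bases went the same way, with 0, 67.3 and 2.20 counts in C2 ceramide day 4, DMSO day 4 and DMSO day 3 EBs. Both transcripts were thus high in DMSO day 4 EBs alone.

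The gene-level value of Pcdhgc4 rested on a short coding transcript of 2272 bases, of which only 153 (6.73%) were its own and the rest were constant exons of the cluster. It took 210.2 counts in C2 ceramide day 4 EBs, 279.9 in DMSO day 4 EBs and 477.9 in DMSO day 3 EBs. This transcript held 15% of the gamma TPM in C2 ceramide day 4 EBs, 13.2% in DMSO day 4 EBs and 46.5% in DMSO day 3 EBs. Its share of the gamma counts was smaller, at 7.65%, 6.53% and 28.9% in the same order. Without it the gamma sum was 18.3 TPM in C2 ceramide day 4 EBs and 28.4 TPM in DMSO day 4 EBs, against 8.75 TPM in DMSO day 3 EBs. Its log2 ratio was then 1.70 in DMSO day 4 over DMSO day 3 EBs, in place of 1.003 with it.

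Pcdhgc5, the last gene of the array, was low. It had 45.2 counts (0.273 TPM) in C2 ceramide day 4 EBs and 105 counts (0.650 TPM) in DMSO day 4 EBs, against 54.8 counts (0.343 TPM) in DMSO day 3 EBs. Its log2 TPM ratio was -1.25 (-1.80 to -0.74) in C2 ceramide day 4 over DMSO day 4 EBs and 0.92 (0.43 to 1.42) in DMSO day 4 over DMSO day 3 EBs. A retained-intron transcript took more of its counts than the coding one in every library, with 27.3 counts against 17.9 in C2 ceramide day 4, 54.3 against 50.7 in DMSO day 4 and 32.4 against 22.4 in DMSO day 3 EBs.

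**Figure D2:**
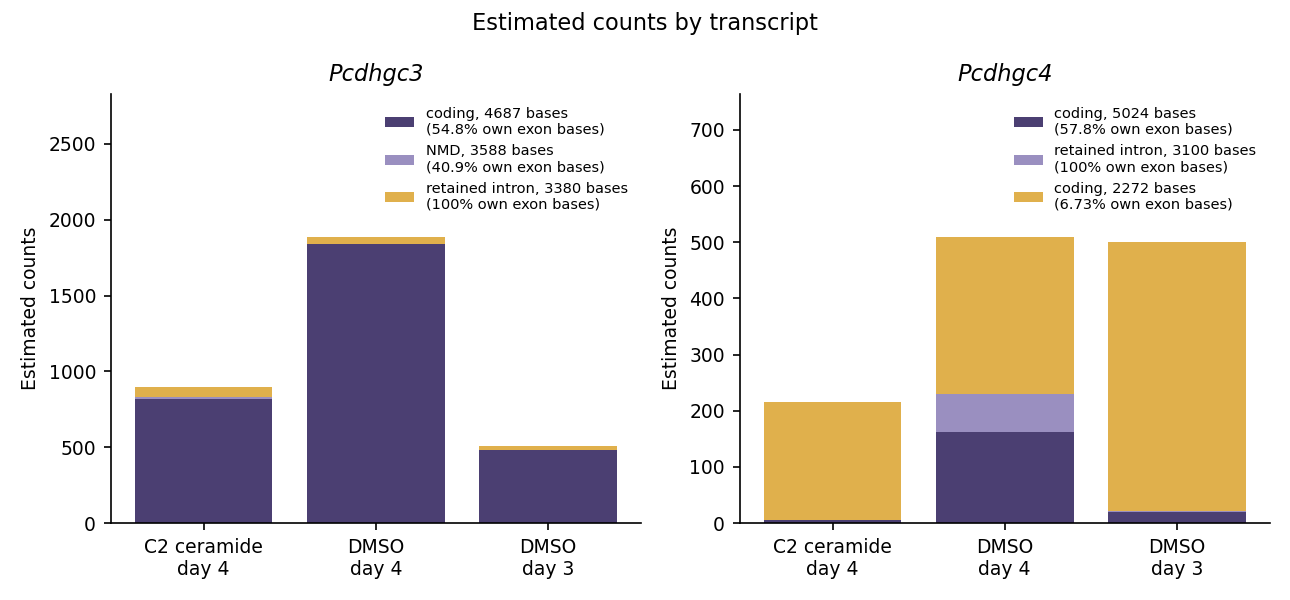
Stacked bars of the estimated counts of each transcript of Pcdhgc3 (left) and Pcdhgc4 (right) in the C2 ceramide day 4, DMSO day 4 and DMSO day 3 libraries, with each transcript's type, length in bases and percent of own exon bases in the legend. The full-length Pcdhgc4 transcript had 162.6 counts in DMSO day 4 EBs and at most 19.8 elsewhere, whereas the short one had its highest value, 477.9 counts, in DMSO day 3 EBs.

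Across the 33 members in use, defined by 10 counts or more in any of the libraries, C2 ceramide day 4 EBs had 6 higher and 14 lower by more than 2-fold than DMSO day 4 EBs. These are 18.2% and 42.4% of the 33, where 9.97% of all 17655 genes in use were higher and 12.3% were lower. In DMSO day 4 over DMSO day 3 EBs, 18 members were higher and 5 lower (54.5% and 15.2%), where 12.8% of all genes were higher and 9.45% were lower. In C2 ceramide day 4 over DMSO day 3 EBs, 13 members were higher and 6 lower (39.4% and 18.2%), where 11.2% of all genes were higher and 9.39% were lower. The same set of 33 is rich in genes of few counts, whose ratios are easily large. Of the 14 lower with ceramide on day 4, 7 had 0 counts with ceramide, 6 of those 7 were alpha genes, and 2 of the 14 had 3 counts or fewer in both libraries.

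Among the 19 members with a mean of at least 20 counts, C2 ceramide day 4 EBs had 3 higher and 5 lower than DMSO day 4 EBs (15.8% and 26.3%), against 6.61% and 7.98% of all 14693 genes under that filter. DMSO day 4 EBs had 10 higher and 0 lower than DMSO day 3 EBs (52.6% of the 19), against 8.94% and 5.55% of all genes. The 3 higher with ceramide were Pcdhga1, Pcdhga5 and Pcdhga8, and the 5 lower were Pcdha1, Pcdhga2, Pcdhga11, Pcdhgc3 and Pcdhgc5. The filter, and with it Pcdhga1 and Pcdhga11 as named genes, was chosen after the data were seen. The median log2 ratio of these 19 members was -0.07 for ceramide over DMSO on day 4 and 1.78 for DMSO day 4 over DMSO day 3, against -0.03 and 0.05 over all genes with that mean. With 3 counts put in place of 0, the second median was 0.92.

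The variable gamma genes, 12 of type A and 6 of type B, encode the diverse extracellular parts of the cluster. As groups they stood differently from the C-type genes under ceramide. The gamma A genes summed to 7.22 TPM in C2 ceramide day 4 EBs and 9.23 TPM in DMSO day 4 EBs, against 2.49 TPM in DMSO day 3 EBs. The gamma B genes summed to 4.33 TPM in C2 ceramide day 4 EBs and 3.52 TPM in DMSO day 4 EBs, against 2.10 TPM in DMSO day 3 EBs. The 3 C-type genes summed to 9.94 TPM in C2 ceramide day 4 EBs and 20.02 TPM in DMSO day 4 EBs, against 11.8 TPM in DMSO day 3 EBs.

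For ceramide over DMSO on day 4 the log2 ratio was -0.36 (-0.47 to -0.23) for the gamma A sum, 0.30 (0.13 to 0.48) for the gamma B sum and -1.01 (-1.11 to -0.91) for the gamma C sum. The intervals of the 3 sums did not overlap, but the gamma A genes did not move together. Pcdhga2 alone went from 3.45 TPM with DMSO to 1.37 TPM with ceramide on day 4, within gamma A sums of 9.23 and 7.22 TPM. Pcdhga1, Pcdhga5 and Pcdhga8 were higher by more than 2-fold with ceramide, and Pcdhga2, Pcdhga9 and Pcdhga11 were lower. The gamma A ratio therefore does not describe each gene of that type. For DMSO day 4 over DMSO day 3 the gamma A ratio was 1.89 (1.72 to 2.07), the gamma B ratio 0.75 (0.52 to 0.97) and the gamma C ratio 0.77 (0.66 to 0.87). The gamma C values include the short Pcdhgc4 transcript, and without it the gamma C sum was 6.72 TPM in C2 ceramide day 4 EBs and 15.7 TPM in DMSO day 4 EBs, against 4.16 TPM in DMSO day 3 EBs. Its log2 ratio was then -1.22 (-1.33 to -1.11) for ceramide over DMSO on day 4 and 1.91 (1.78 to 2.05) for DMSO day 4 over DMSO day 3, the last of these inside the interval of the gamma A sum. For C2 ceramide day 4 over DMSO day 3 the gamma A ratio was 1.53 (1.36 to 1.72) and the gamma B ratio 1.05 (0.83 to 1.26). The gamma C ratio for that pair was -0.24 (-0.36 to -0.12) on TPM but 0.06 (-0.06 to 0.18) on CPM, and 0.69 (0.54 to 0.84) on TPM without the short Pcdhgc4 transcript, so its direction turned with the unit and with that transcript.

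**Figure D3:**
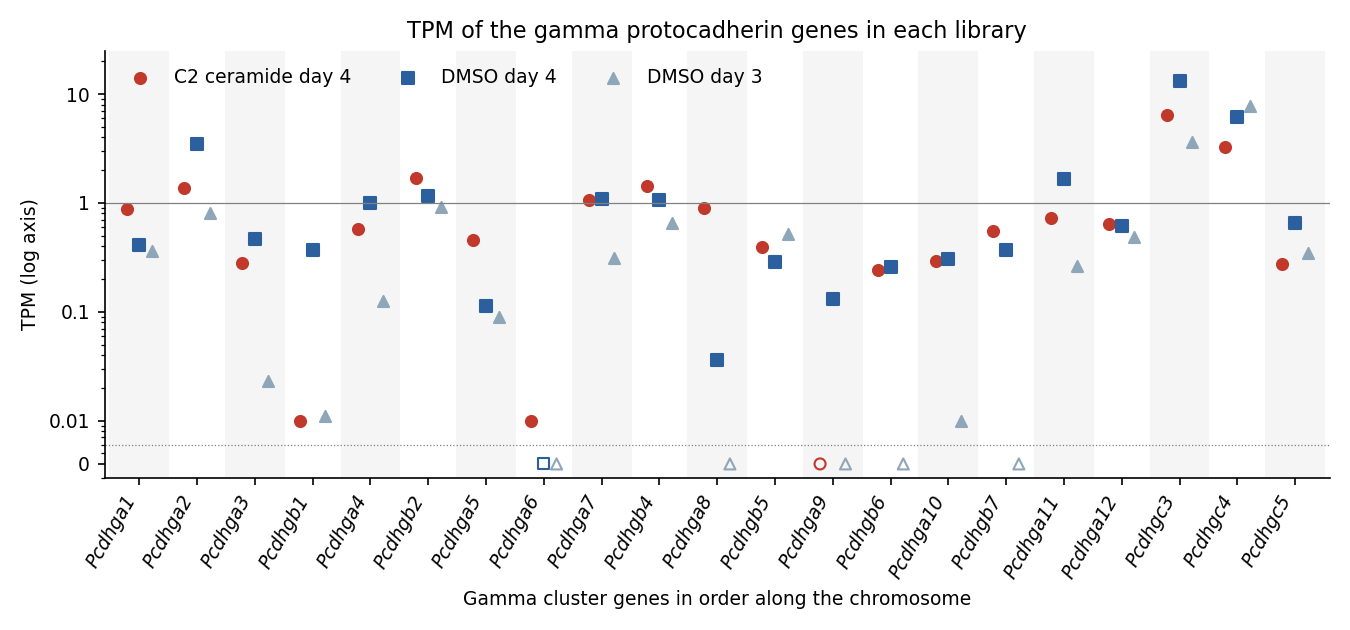
TPM of each gamma gene on a log axis, in order along the array, in the C2 ceramide day 4 (red circles), DMSO day 4 (blue squares) and DMSO day 3 (grey triangles) libraries, with open symbols at the foot for genes listed at 0 and a line at 1 TPM. Pcdhgc3 and Pcdhgc4 stood highest, Pcdhga8 and Pcdhga5 were highest with ceramide, and Pcdhga2 and Pcdhgb1 were highest in DMSO day 4 EBs.

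Some variable genes were lower with ceramide than with DMSO on day 4, by unlike amounts. Pcdhga2 (37668953-37841870), the highest gamma A gene, had 199 counts (1.37 TPM) in C2 ceramide day 4 EBs and 496 counts (3.45 TPM) in DMSO day 4 EBs, against 114 counts (0.810 TPM) in DMSO day 3 EBs. Its log2 TPM ratio was -1.33 (-1.58 to -1.09) for ceramide over DMSO on day 4 and 2.09 (1.79 to 2.39) for DMSO day 4 over DMSO day 3. Its single transcript had 55.6% own windows, and Pcdhga2 made up 20.1% of the gamma A counts in C2 ceramide day 4, 38.2% in DMSO day 4 and 33.2% in DMSO day 3 EBs.

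Pcdhgb1 (37680233-37841870) was seen almost entirely in the DMSO day 4 library, with 1.50 counts in C2 ceramide day 4 EBs and 52.3 in DMSO day 4 EBs, against 1.49 in DMSO day 3 EBs. Its log2 TPM ratio was -5.19 (-7.85 to -2.84) for ceramide over DMSO on day 4 and 5.06 (3.08 to 10.95) for DMSO day 4 over DMSO day 3. Pcdhga3 (37674307-37841873) had 41.0 counts in C2 ceramide day 4 EBs and 66.7 in DMSO day 4 EBs, against 3.26 in DMSO day 3 EBs. Its ratio was -0.72 (-1.32 to -0.14) with ceramide on day 4, within 2-fold, and 4.33 (2.85 to 6.78) for DMSO day 4 over DMSO day 3. Pcdhga3 was thus high on day 4 with or without ceramide.

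Other variable genes were higher with ceramide. Pcdhga8 (37725706-37841873) had 130.4 counts (0.900 TPM) in C2 ceramide day 4 EBs, 5.09 counts (0.036 TPM) in DMSO day 4 EBs and 0 counts in DMSO day 3 EBs. Its log2 TPM ratio was 4.64 (3.40 to 6.31) for ceramide over DMSO on day 4. Against DMSO day 3 EBs it was 41.4-fold higher with ceramide, with 3 counts put in place of 0 in that library. All of the counts of Pcdhga8 fell on its single coding transcript, of which 46.5% of the windows were its own.

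Pcdhga5 (37694380-37841873) had 64.9 counts (0.452 TPM) in C2 ceramide day 4 EBs and 16.1 counts (0.113 TPM) in DMSO day 4 EBs, against 12.4 counts (0.089 TPM) in DMSO day 3 EBs. Its log2 ratio was 2.00 (1.20 to 2.90) for ceramide over DMSO on day 4, while DMSO day 4 and DMSO day 3 EBs did not differ beyond counting error (0.34, -0.79 to 1.60). Pcdhgb2 (37689828-37841873), the highest gamma B gene on TPM, had 235 counts (1.70 TPM) in C2 ceramide day 4 EBs and 164 counts (1.17 TPM) in DMSO day 4 EBs, against 87.7 counts (0.919 TPM) in DMSO day 3 EBs. Its ceramide over DMSO ratio on day 4 was 0.54 (0.25 to 0.84), within 2-fold.

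The day 3 value of Pcdhgb2 was made largely of a retained-intron transcript with 46.4 counts, against 41.2 on its coding transcript. The coding transcript of Pcdhgb2 alone gave a log2 TPM ratio of 1.96 (1.47 to 2.50) for DMSO day 4 over DMSO day 3, against 0.34 (-0.04 to 0.73) for the gene. Pcdhgb7 (37751600-37841873) had 79.3 counts in C2 ceramide day 4 EBs and 52.4 in DMSO day 4 EBs, against 0 in DMSO day 3 EBs. With 3 counts put in place of 0, it was 16.7-fold higher in DMSO day 4 than in DMSO day 3 EBs. Its ceramide over DMSO ratio on day 4 was 0.58 (0.06 to 1.12).

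In the gamma cluster as a whole, 20 of 21 genes were in use. For ceramide over DMSO on day 4, 3 were higher, 6 lower and 11 within 2-fold, where 9.97% of all genes were higher and 12.3% lower. For DMSO day 4 over DMSO day 3, 12 were higher, 0 lower and 8 within 2-fold, where 12.8% of all genes were higher and 9.45% lower. For C2 ceramide day 4 over DMSO day 3, 11 were higher, 1 lower and 8 within 2-fold, where 11.2% of all genes were higher and 9.39% lower, and the 1 lower gene was Pcdhgc4. Genes next to each other in the array could stand on opposite sides, as with Pcdhga1, which had 106.4 counts in C2 ceramide day 4 EBs against 37.0 in DMSO day 4 EBs, beside Pcdhga2. Pcdhga1 was named after its values were seen. Its shorter coding transcript, made only of own bases, had 37.9 counts in C2 ceramide day 4, 37.0 in DMSO day 4 and 0 in DMSO day 3 EBs. Its full-length transcript, which holds the constant exons, had 68.5, 0 and 50.65 counts in the same order. The day 4 difference of Pcdhga1 thus lay in the transcript whose counts depend on how shared reads were split.

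**Figure D4:**
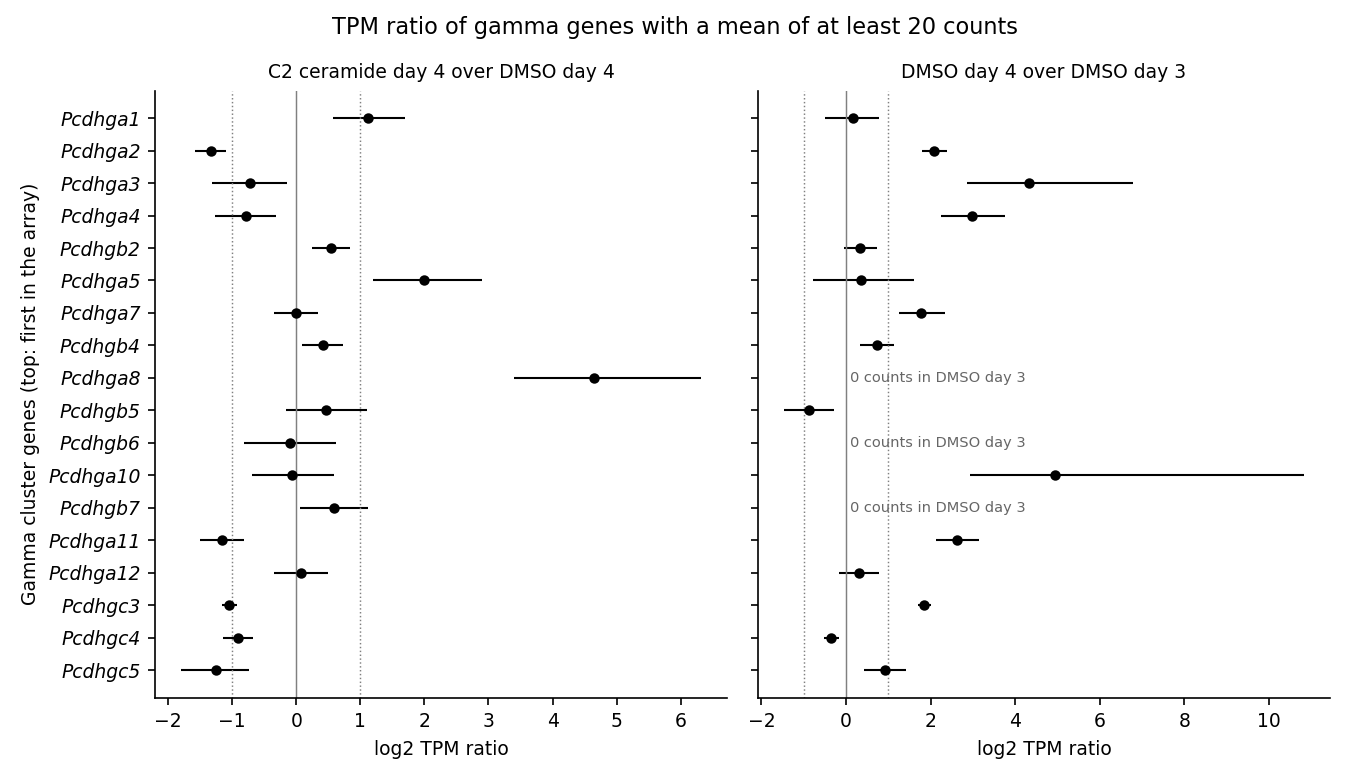
Log2 TPM ratio of the gamma genes with a mean of at least 20 counts, for C2 ceramide day 4 over DMSO day 4 (left) and DMSO day 4 over DMSO day 3 (right), with 95% exact intervals for counting error and dotted lines at 2-fold, and with genes at 0 counts in DMSO day 3 EBs written out. Pcdhga8 at 4.64 and Pcdhga5 at 2.00 lay to the right and Pcdhga2 at -1.33 to the left under ceramide, and between the days Pcdhga2 lay at 2.09 and Pcdhgc3 at 1.85.

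In the alpha cluster 11 of 14 genes were in use, but the highest value in any library was 35.1 counts. Pcdha1, the first gene of the array, had 9.96 counts in C2 ceramide day 4 EBs and 35.1 in DMSO day 4 EBs, against 21.3 in DMSO day 3 EBs. Its log2 TPM ratio was -1.83 (-3.00 to -0.77) for ceramide over DMSO on day 4. All the counts of Pcdha1 in the day 4 libraries were placed on 1 of its transcripts and all those of DMSO day 3 EBs on another. Pcdha12 was level, with 16.85 counts in C2 ceramide day 4 EBs, 16.95 in DMSO day 4 EBs and 20.4 in DMSO day 3 EBs.

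The 2 alpha C-type genes differed. Pcdhac2, the last gene of the alpha array and its highest member by counts with ceramide, had 24.3 counts in C2 ceramide day 4 EBs, 0 in DMSO day 4 EBs and 18.5 in DMSO day 3 EBs. With 3 counts put in place of 0, it was 8.06-fold higher in C2 ceramide day 4 than in DMSO day 4 EBs. All alpha counts lay on transcripts with shared bases, so a 0 can also come from how shared reads were split. Pcdhac1 had 0 counts in all 3 libraries, as had Pcdha5.

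2 entries of the table carry the symbol Pcdha11. The entry ENSMUSG00000007440.10 had 0 counts in C2 ceramide day 4 EBs and 34.1 in DMSO day 4 EBs, against 3.11 in DMSO day 3 EBs. With 3 counts put in place of 0, it was 11.4-fold lower with ceramide on day 4. The entry ENSMUSG00000102206.5 had 14.0 counts in C2 ceramide day 4 EBs, 0 in DMSO day 4 EBs and 20.8 in DMSO day 3 EBs, the mirror image, and was named after its values were seen. The first entry begins at 37005203 and the second at 37010712, where RefSeq on the same build has Pcdha10 starting at 37005320 and Pcdha11 at 37010858. Only 2.36% of the windows of the longest coding transcript of the second entry were its own.

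The beta cluster had 2 of 22 genes in use, although its transcripts were nearly all their own sequence. Pcdhb17 had 14 counts in C2 ceramide day 4 EBs and 17 in DMSO day 4 EBs, against 7 in DMSO day 3 EBs. Its intervals held 0 in all 3 comparisons. Pcdhb8 had 6 counts in C2 ceramide day 4 EBs and 15.7 in DMSO day 4 EBs, against 0 in DMSO day 3 EBs. With 3 counts put in place of 0, it was 5.01-fold higher in DMSO day 4 than in DMSO day 3 EBs.

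Below the limit for use, Pcdhb22 had 6 counts in each day 4 library and 0 in DMSO day 3 EBs, and Pcdhb6 had 8.32 counts in DMSO day 4 EBs alone. The other 18 beta genes stayed at 8 counts or fewer, and 10 of them, among them Pcdhb1, were at 0 in all 3 libraries.

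**Figure D5:**
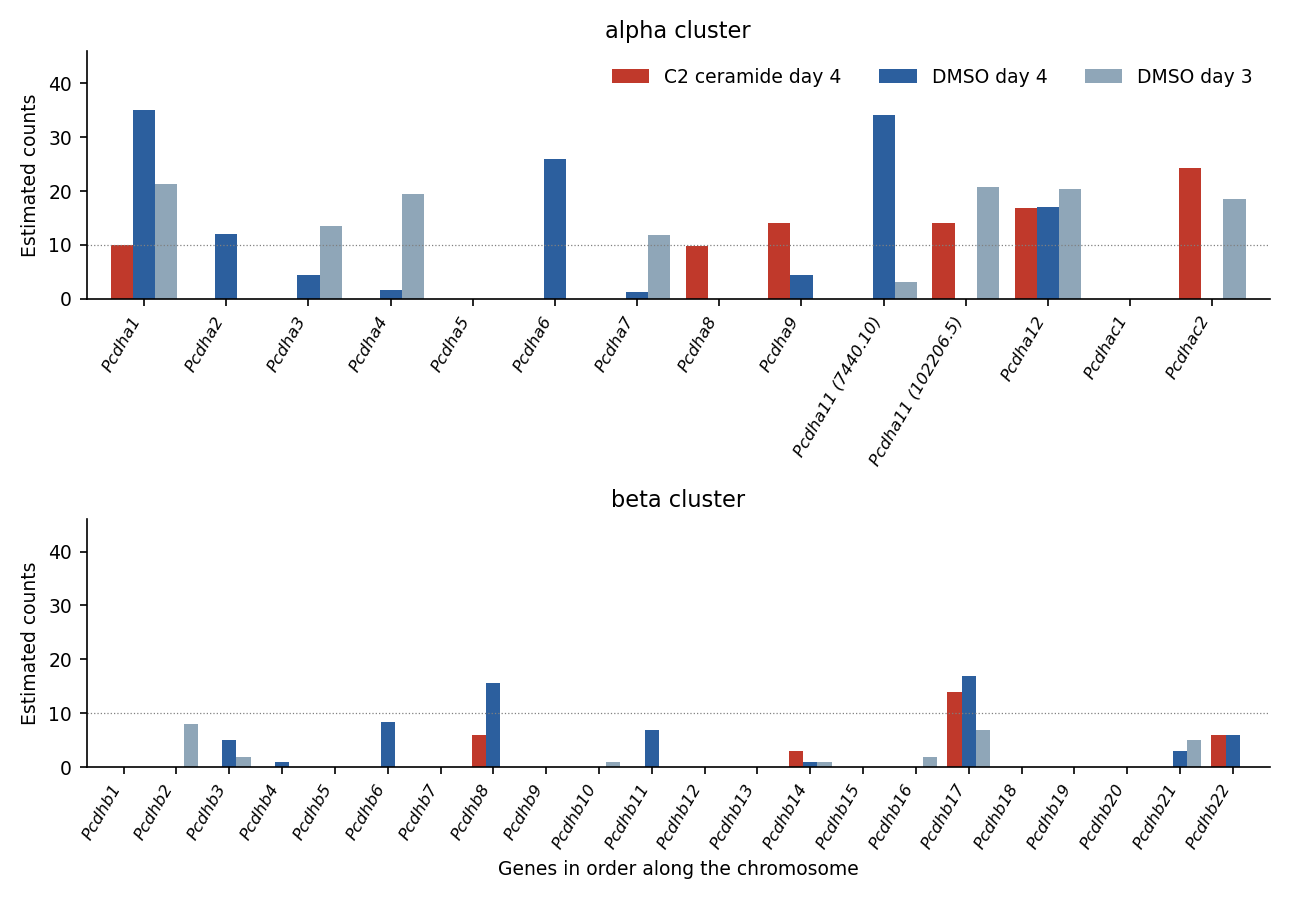
Estimated counts of each alpha gene (top) and beta gene (bottom) in order along its array, in the C2 ceramide day 4 (red), DMSO day 4 (blue) and DMSO day 3 (grey) libraries, with a dotted line at 10 counts. The highest bar stood at 35.1 counts, and in the alpha cluster the high bars fell on different genes in different libraries. The alpha sum was 89.0 counts in C2 ceramide day 4, 136.0 in DMSO day 4 and 128.9 in DMSO day 3 EBs. All alpha counts lay on transcripts with shared bases, so the gene they were placed on depends on how shared reads were split.

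Some of the protocadherins outside the clusters, each a gene of its own outside the arrays, were measured on more counts. Pcdh7 had 112 counts (0.695 TPM) in C2 ceramide day 4 EBs and 2146 counts (14.3 TPM) in DMSO day 4 EBs, against 37 counts (0.238 TPM) in DMSO day 3 EBs. Pcdh8, known as paraxial protocadherin and used in the mesoderm, had 428 counts (3.93 TPM) in C2 ceramide day 4 EBs and 1484 counts (13.6 TPM) in DMSO day 4 EBs, against 209 counts (1.94 TPM) in DMSO day 3 EBs. Pcdh19 had 33 counts in C2 ceramide day 4 EBs and 210.0 in DMSO day 4 EBs, against 13 in DMSO day 3 EBs.

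The log2 TPM ratios for ceramide over DMSO on day 4 were -4.36 for Pcdh7, -1.79 for Pcdh8 and -2.76 for Pcdh19, and each was further from 0 than that of Pcdhgc3. Pcdh1 stood apart, with 2827 counts (23.7 TPM) in C2 ceramide day 4 EBs, against 972 counts (8.46 TPM) in DMSO day 4 EBs and 1380 counts (12.01 TPM) in DMSO day 3 EBs. Of the 9 non-clustered protocadherins in use, 4 were higher, 3 lower and 2 within 2-fold with ceramide on day 4, where 9.97% of all genes were higher and 12.3% lower. Of the 4 higher, Pcdh9, Pcdh11x and Pcdh20 rested on few counts in C2 ceramide day 4 against DMSO day 4 EBs. These were 21 against 1, 16 against 7 and 31 against 1, and the Pcdh11x interval held 0 (-0.19 to 2.70). In DMSO day 4 over DMSO day 3 EBs, 4 were higher, 2 lower and 3 within 2-fold, where 12.8% of all genes were higher and 9.45% lower. The 2 lower were Pcdh9 and Pcdh20, each with 1 count in DMSO day 4 EBs and 2 in DMSO day 3 EBs, too few for a fold.

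Of 15 chromatin and looping factors known to act on clustered protocadherin promoters, which include Ctcf, the cohesin subunits Rad21, Smc1a and Smc3, the silencer Smchd1 and the DNA methyltransferases, all 15 lay within 2-fold both for ceramide over DMSO on day 4 and for DMSO day 4 over DMSO day 3, as did 77.7% of all genes in use in either comparison. Dnmt3b, which methylates clustered protocadherin promoters in the early mouse embryo, had 364.6 TPM in C2 ceramide day 4 EBs and 383.2 TPM in DMSO day 4 EBs, against 736.4 TPM in DMSO day 3 EBs. It was the 1 factor past 2-fold for C2 ceramide day 4 over DMSO day 3, barely, at a log2 ratio of -1.01. In that comparison 9.39% of all genes in use were lower and 79.4% lay within 2-fold. Dnmt3a had 109.2 TPM in C2 ceramide day 4 EBs, 81.1 in DMSO day 4 EBs and 151.7 in DMSO day 3 EBs. For DMSO day 4 over DMSO day 3, Dnmt3a at -0.90 and Dnmt3b at -0.94 lay close to the 2-fold line.

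Of 14 intracellular partners and processing enzymes of the proteins, 13 lay within 2-fold with ceramide on day 4, where 77.7% of all genes did. The exception was Ret, a receptor kinase that clustered protocadherins bind, with 76 counts in C2 ceramide day 4 EBs and 152 in DMSO day 4 EBs, against 44 in DMSO day 3 EBs. The member with the most counts, Nckap1 of the WAVE complex that shapes actin, had 74.7 TPM in C2 ceramide day 4 EBs and 73.9 TPM in DMSO day 4 EBs, against 70.9 TPM in DMSO day 3 EBs.

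Of the 21 protein-coding neighbours in use, inside the arrays or within 300 kb of them, 18 lay within 2-fold with ceramide on day 4, 1 was higher and 2 were lower, where 77.7% of all genes lay within 2-fold, 9.97% were higher and 12.3% lower. Taf7, a subunit of the general transcription factor TFIID that sits between the beta and gamma arrays, had 71.2 TPM in C2 ceramide day 4 EBs and 66.7 TPM in DMSO day 4 EBs, against 89.4 TPM in DMSO day 3 EBs. Dnd1, a germ cell gene near the alpha array, had 15.2 TPM in C2 ceramide day 4 EBs and 31.2 TPM in DMSO day 4 EBs, against 24.2 TPM in DMSO day 3 EBs. For DMSO day 4 over DMSO day 3, 20 of the 21 neighbours lay within 2-fold and 1 was lower, where 77.7% of all genes lay within 2-fold and 9.45% were lower.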

How the data were processed

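Total RNA from EBs was amplified as cDNA (SMART-Seq v4) and tagged with Nextera XT, 1 library per condition. The authors ran DRAGEN 3.6.3 on GRCm38 with GENCODE M25 and deposited, for each of 55487 genes and for each transcript, TPM values, scaled within each library for length and depth, and expected counts, estimates of the reads per gene which need not be whole and are not normalized. Both were used as deposited. Reads were not used.

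TPM ratios were computed for genes that reached 10 counts in any library, with a TPM of 0 set to 0.001, and called above 2 or below 0.5 as in the study's methods. Intervals are exact conditional (Clopper-Pearson) 95% intervals of counts rounded to whole numbers, centred on the TPM ratio. PCR copies are counted separately, so they cover counting error only. The intervals were tried only on simulated counts of well-covered genes without shared exons. That trial does not speak for members with few counts or with shared exons. A fold against 0 counts puts 3 counts in place of the 0. It leaves out the counting error of the other library, so it is not a lower bound. For alpha and gamma genes a 0 can also come from how reads of shared exons were split. No fold is given where both libraries held 3 counts or fewer. Transcripts were matched to GENCODE M21 by versioned ID, all 87 with equal length, and own exon bases are those in no other member. Python 3.11.15 with NumPy 2.4.6, pandas 2.3.3, SciPy 1.17.1 and Matplotlib 3.10.9 was used, and R 4.3.3 with edgeR 4.0.16 and DESeq2 1.42.0 gave size factors for alternatives.

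Named with values were the C-type genes, the 4 members of each cluster with the most counts, those with the largest ratios among members with at least 50 counts, and in other lists the members past 2-fold with ceramide and at least 50 counts and the one with the most. Genes named beyond this rule are said to be so or illustrate a count. The members and lists were chosen with earlier results of these data known. Alternatives were pseudocounts, count filters, a 4-fold threshold, CPM, TMM and DESeq2 scaling, and sums without the highest member. A gene called Pcdhgb8, typed as a polymorphic pseudogene in the table, was left out by the rule, with 56.8 counts in C2 ceramide day 4 EBs, 12.8 in DMSO day 4 EBs and 37.2 in DMSO day 3 EBs.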

Additional observations from a re-analysis of the deposited data

How the results depend on the processing

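The alpha sum for DMSO day 4 over DMSO day 3, at 0.11, turned to -0.02 with TMM, -0.01 with DESeq2 and -0.07 without Pcdha1. The beta sum for C2 ceramide day 4 over DMSO day 3, at -0.53, turned to 0.09 on CPM, 0.07 with TMM and 0.08 with DESeq2. The intervals of both sums held 0, and the other 7 cluster sums kept their direction under the alternatives run. Counts of members past 2-fold depended on how low values were treated. For ceramide over DMSO on day 4, the 6 higher members became 3 with a pseudocount of 0.1 TPM, 0 with a pseudocount of 1, and 3 with at least 50 counts, at 4-fold, or with a mean of at least 20 counts (chosen after seeing the data). The 14 lower became 9, 0, 5, 8 and 5 in that order. For DMSO day 4 over DMSO day 3, the 18 higher became 3 with a pseudocount of 1, 9 with at least 50 counts and 10 with the mean filter. The 5 lower became 3 and 0 with pseudocounts of 0.1 and 1, 8 with genes of at least 1 count, and 0 with at least 50 counts or the mean filter. For C2 ceramide day 4 over DMSO day 3, the 13 higher became 0 with a pseudocount of 1, and the 6 lower became 2 and 1 with pseudocounts of 0.1 and 1, 11 with at least 1 count, 1 with at least 50 and 2 with the mean filter. The log2 ratio of the gamma sum moved to -0.37 without Pcdhgc3 for ceramide over DMSO on day 4. For DMSO day 4 over DMSO day 3 it moved to 1.31 on CPM, 1.28 with TMM, 1.28 with DESeq2, 0.62 without Pcdhgc3 and 1.70 without the short Pcdhgc4 transcript (chosen after seeing the data). For C2 ceramide day 4 over DMSO day 3 it moved to 0.66, 0.65, 0.65, 0.25 and 1.06 in the same order. Without Pcdhgc4 the DMSO day 4 over DMSO day 3 ratio was 1.63 on TPM and 1.65 on CPM. Of 195 values for the named genes under alternatives, 161 moved by less than their counting interval, and 34 by more. The sign changed in 4 of the 195, for Pcdha12 and Pcdhb22 with TMM and DESeq2 for ceramide over DMSO on day 4, where both intervals held 0. No paired analysis was possible because each condition had 1 library. With 1 library per condition no replicate could be left out.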

Other observations

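Classical cadherins, the calcium-dependent adhesion proteins of the same superfamily, and their catenin partners gave a further comparison. Of 12 in use, 1 was higher, 2 were lower and 9 lay within 2-fold for C2 ceramide day 4 over DMSO day 4, where 9.97% of all genes were higher, 12.3% lower and 77.7% within 2-fold. Cdh2, the N-cadherin of mesoderm and neural cells, had 8.44 TPM in C2 ceramide day 4 EBs and 73.7 TPM in DMSO day 4 EBs, against 2.67 TPM in DMSO day 3 EBs. Cdh11, a cadherin of mesenchyme, had 0.655 TPM in C2 ceramide day 4 EBs and 17.3 TPM in DMSO day 4 EBs, against 0.999 TPM in DMSO day 3 EBs. Ctnna2, the neural alpha-catenin, had 0.679 TPM in C2 ceramide day 4 EBs and 0.229 TPM in DMSO day 4 EBs, against 1.83 TPM in DMSO day 3 EBs. Ctnnb1, the beta-catenin gene with the most counts of the list, had 492.5 TPM in C2 ceramide day 4 EBs and 436.7 TPM in DMSO day 4 EBs, against 425.6 TPM in DMSO day 3 EBs.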
